A study of Homo sapiens with 8 samples.

Results

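Integrins are the receptors through which cells hold on to matrix and to each other, and laminins are the matrix proteins that build the sheet under every epithelium. Of 37 listed genes of the 2 families, 35 could be followed on these arrays: 25 of 26 integrin subunit genes and 10 of 11 laminin chain genes, out of 19775 genes in all. They were chosen by gene family: a member was measured where a probe set (a group of short probes for one transcript) was annotated to that gene and no other, and its probe set with the highest mean over the 8 arrays stood for it. Of the listed genes, LAMA3 and ITGB6 had no gene value by this rule.

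RNA from human colon cancer cells was hybridised to 8 Affymetrix arrays, 2 for each of 4 groups. HT29 and SW480 are established lines from human colorectal adenocarcinomas. The parental HT29 cells grew in DMEM with 10% fetal bovine serum. The HT29 spheres, labelled as first spheres, grew in DMEM-F12 with EGF and bFGF, each at 10 ng/ml, and N2 Plus supplement; serum is not among the listed components. The SW480 groups were stable lines in high-glucose DMEM with 10% serum, one carrying a control vector and the other labelled as expressing Snail, a zinc finger repressor encoded by SNAI1. The sphere comparison changes the medium and the form of growth together, so their contributions cannot be told apart. The labels do not say whether a stable line is a clone or a pool, what promoter drives the transgene, or whether paired arrays come from different cultures. All p-values rest on the spread within these pairs, which could be technical only.

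The values are log2 expression values, on which a difference of 1 is a doubling of signal. Array medians over all probe sets lay between 5.50 and 5.61, and partner arrays correlated at 0.991 to 0.995 across genes. Over the probe sets that stood for genes the medians were higher, at 6.47 to 6.62. Array medians named below are those over all probe sets. Genes at least 2-fold apart within a pair numbered 200 in parental HT29 cells and 10 to 19 elsewhere. The label of the Snail line was not borne out by SNAI1: its level was 6.35 ± 0.01 (SD, n = 2) in vector cells and 6.35 ± 0.04 (SD, n = 2) in those labelled Snail, giving a change of 0.00 ± 0.15 (SE; limma adjusted p 0.99). A probe set outside the introduced sequence would not see a transgene, and where this one lies relative to it was not examined. Every direction given for that line rests on the label. In HT29 cells SNAI1 was at 6.01 ± 0.20 (SD, n = 2) in parental cultures and 7.07 ± 0.20 (SD, n = 2) in spheres, a rise of 1.07 ± 0.15 (SE; limma adjusted p 0.00032).

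An integrin is a pair of an alpha and a beta subunit, and the pair decides the ligand. ITGB1 joins most alpha subunits, including those for collagen and laminin, whereas ITGB4 joins ITGA6 in the hemidesmosome, the structure that fastens epithelial cells to the basement membrane. A laminin is a trimer of an alpha, a beta and a gamma chain, and colon epithelium uses laminin both as a foothold and as a signal. Sphere culture takes cells off the plastic. In bulk RNA, fewer cells of a type and less RNA per cell cannot be told apart.

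In spheres, the collagen receptor subunits ITGA1 and ITGA2 and the vitronectin receptor subunit ITGB5 fell, while ITGB8, which pairs with ITGAV to bind latent TGF-beta, and the laminin chain LAMB3 rose. Each of these 5 moved at least 2-fold. Across the family, 11 of 35 members passed an adjusted p of 0.05 (limma, Benjamini-Hochberg over all genes), 5 higher and 6 lower. That is 31.4% of the members, and 31.4% of all genes tested passed too, so the count did not set the family apart. Among all genes 12.4% were higher, 19% lower, and 10.2% past the threshold and at least 2-fold apart. The higher members were ITGA7, ITGA11, ITGB8, LAMA2 and LAMB3, and the lower ones ITGA1, ITGA2, ITGA6, ITGAE, ITGB5 and LAMA5. The median change was 0.14 over the members and 0.04 over all genes, and the median size of change was 0.26 and 0.27.

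**Figure D1:**
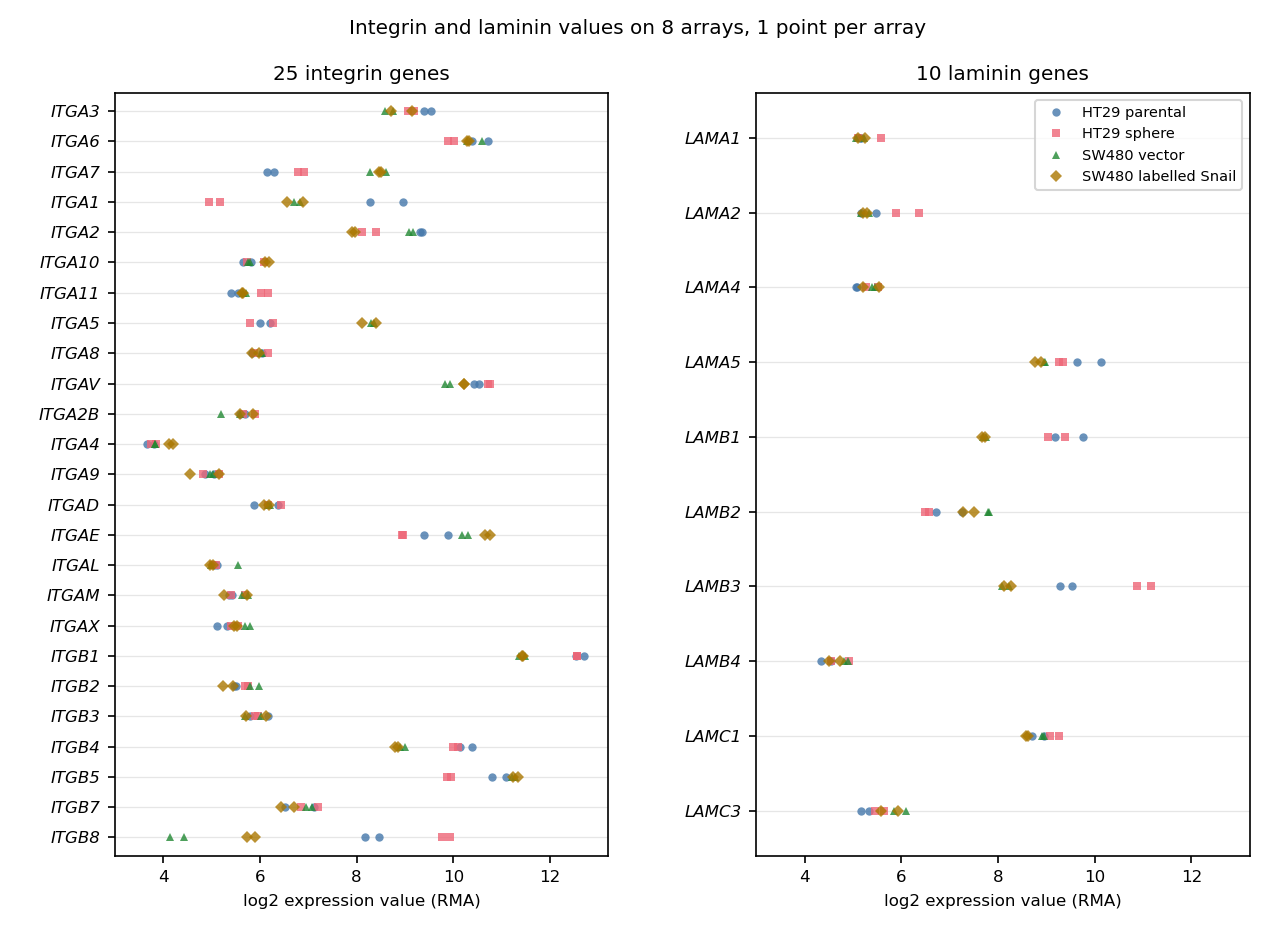
Log2 expression (x axis, RMA values) of the 25 measured integrin genes and 10 measured laminin genes (rows, by role), 1 point per array, with colour and shape giving the 4 groups. The 2 ITGA1 sphere points (4.94 and 5.17) lie left of the other 6, and ITGB8 runs from 4.13 to 9.92.

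Stretches before the RefSeq start sites of the 5 members that moved at least 2-fold in spheres are shown here, as the members with the largest changes there (GRCh38.p14, read 5′ to 3′ on the gene's strand). Capitals mark matches, on either strand, to 3 motifs: CAGGTG, the E-box to which Snail-type factors bind; TGANTCA, the AP-1 site; and GGGCGG, the GC box of SP1-type factors. The letters of the 3 motifs do not overlap one another in these windows. ITGA1, which fell most in spheres, held none of the 3 in its window (chr5:52787666-52787915, plus strand). The window of ITGA2 (chr5:52989102-52989351, plus strand) held 4 GC boxes. The outermost of the 3 ITGB5 start sites (chr3:124901419-124901668, minus strand) had 2 GC boxes. Of the ITGB5 windows not shown, the innermost (chr3:124887366-124887615, minus strand) had 1 E-box and 3 GC boxes, and the other had no match. The outermost of the 3 LAMB3 start sites (chr1:209652426-209652675, minus strand) had 1 E-box and 1 GC box. Shorter stretches are shown for an AP-1 match before another LAMB3 start site (chr1:209651424-209651453, minus strand) and a GC box before ITGB8 (chr7:20330839-20330868, plus strand). The LAMB3 window with the AP-1 match also had 1 GC box, whose first letters end the stretch in lower case. The remaining LAMB3 window had 1 GC box, and the ITGB8 window had 2.
ITGA1: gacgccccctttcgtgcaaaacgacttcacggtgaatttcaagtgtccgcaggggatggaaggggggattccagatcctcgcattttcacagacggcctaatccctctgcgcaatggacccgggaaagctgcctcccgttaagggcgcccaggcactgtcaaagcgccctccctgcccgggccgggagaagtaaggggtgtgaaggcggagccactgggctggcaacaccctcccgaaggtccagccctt
ITGA2: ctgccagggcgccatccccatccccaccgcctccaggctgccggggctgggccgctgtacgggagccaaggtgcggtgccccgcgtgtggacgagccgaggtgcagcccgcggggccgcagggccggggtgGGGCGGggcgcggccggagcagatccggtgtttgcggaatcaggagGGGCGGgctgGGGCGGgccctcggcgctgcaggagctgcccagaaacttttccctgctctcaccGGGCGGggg
ITGB5: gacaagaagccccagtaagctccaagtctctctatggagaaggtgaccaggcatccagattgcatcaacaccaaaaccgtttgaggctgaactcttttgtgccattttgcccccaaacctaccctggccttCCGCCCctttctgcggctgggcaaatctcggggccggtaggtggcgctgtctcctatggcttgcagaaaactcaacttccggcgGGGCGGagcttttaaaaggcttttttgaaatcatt
LAMB3, outermost start: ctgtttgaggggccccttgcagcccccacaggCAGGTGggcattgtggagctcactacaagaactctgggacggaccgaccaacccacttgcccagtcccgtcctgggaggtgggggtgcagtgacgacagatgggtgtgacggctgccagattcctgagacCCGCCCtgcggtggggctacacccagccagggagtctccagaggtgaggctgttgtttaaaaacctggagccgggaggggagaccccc
LAMB3, AP-1 match: cgtcagccactcTGACTCAttcactttggg
ITGB8, GC box: accacccctctcCCGCCCatcgccggcctc

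For scale, 35116 RefSeq windows of 250 bases were searched in the same way: 17.5% held CAGGTG, 6.57% held TGANTCA and 42.6% held GGGCGG. RefSeq gave 33 windows for 26 listed genes. Of these 33, 8 held the E-box, 2 the AP-1 site and 17 the GC box. The AP-1 matches lay before LAMA3 and LAMB3. A match is a run of letters and is not evidence that a factor binds there.

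The alpha subunits that bind collagen gave the largest fall of the family. ITGA1 measured 8.28 and 8.96 in parental HT29 cells, 4.94 and 5.17 in spheres, 6.72 and 6.83 in SW480 vector cells, and 6.57 and 6.88 in the arrays labelled Snail. Both sphere arrays lay far below both parental arrays and below the median of their own array, while the SW480 groups overlapped. The fall in spheres was 3.57 on the log2 scale, or 11.8-fold (SE 0.21; limma adjusted p 1.9e-06). The ITGA1 change labelled Snail was -0.04 ± 0.21 (SE; limma adjusted p 0.92), and vector cells lay 3.6-fold below parental HT29 cells (-1.85 ± 0.21, SE; limma adjusted p 4.3e-05). The parental arrays themselves differed by 0.69, the widest gap of any member in that pair. Of 2 dimmer ITGA1 probe sets, one fell by 2.45 (adjusted p 2.5e-05, limma over probe sets naming 1 gene). The other changed by -0.17 (adjusted p 0.54), at values between 3.26 and 3.75 on all 8 arrays.

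ITGA2, the platelet and epithelial collagen receptor subunit, was the one member past the threshold downward in both comparisons by at least 2-fold. Its values were 9.36 and 9.32 in parental cells, 8.10 and 8.40 in spheres, 9.08 and 9.16 in vector cells, and 7.96 and 7.90 in the arrays labelled Snail. Neither the sphere pair nor the pair labelled Snail overlapped its control pair. The fall in ITGA2 was 2.12-fold in spheres (-1.09 ± 0.13, SE; limma adjusted p 0.00016) and 2.28-fold in the arrays labelled Snail (-1.19 ± 0.13, SE; limma adjusted p 0.00044). The test of the difference between these changes gave 0.10 ± 0.19 (SE; limma adjusted p 0.74), which does not show that they are equal. A dimmer ITGA2 probe set changed by -0.05 in spheres (adjusted p 0.90). It fell by 0.79 in the arrays labelled Snail (adjusted p 0.028, limma over probe sets naming 1 gene). In spheres the fall was therefore seen by the brighter probe set alone.

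The other collagen receptor subunits lay near the array medians, and below the medians over genes. ITGA11 rose from 5.47 ± 0.10 to 6.10 ± 0.11 (SD, n = 2) in spheres (0.62 ± 0.12, SE; limma adjusted p 0.0034). Its 2 dimmer probe sets changed by 0.09 and -0.06 (adjusted p 0.69 and 0.83, limma over probe sets naming 1 gene). ITGA10, a cartilage collagen receptor subunit, changed by 0.18 ± 0.15 (SE; limma adjusted p 0.41).

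**Figure D2:**
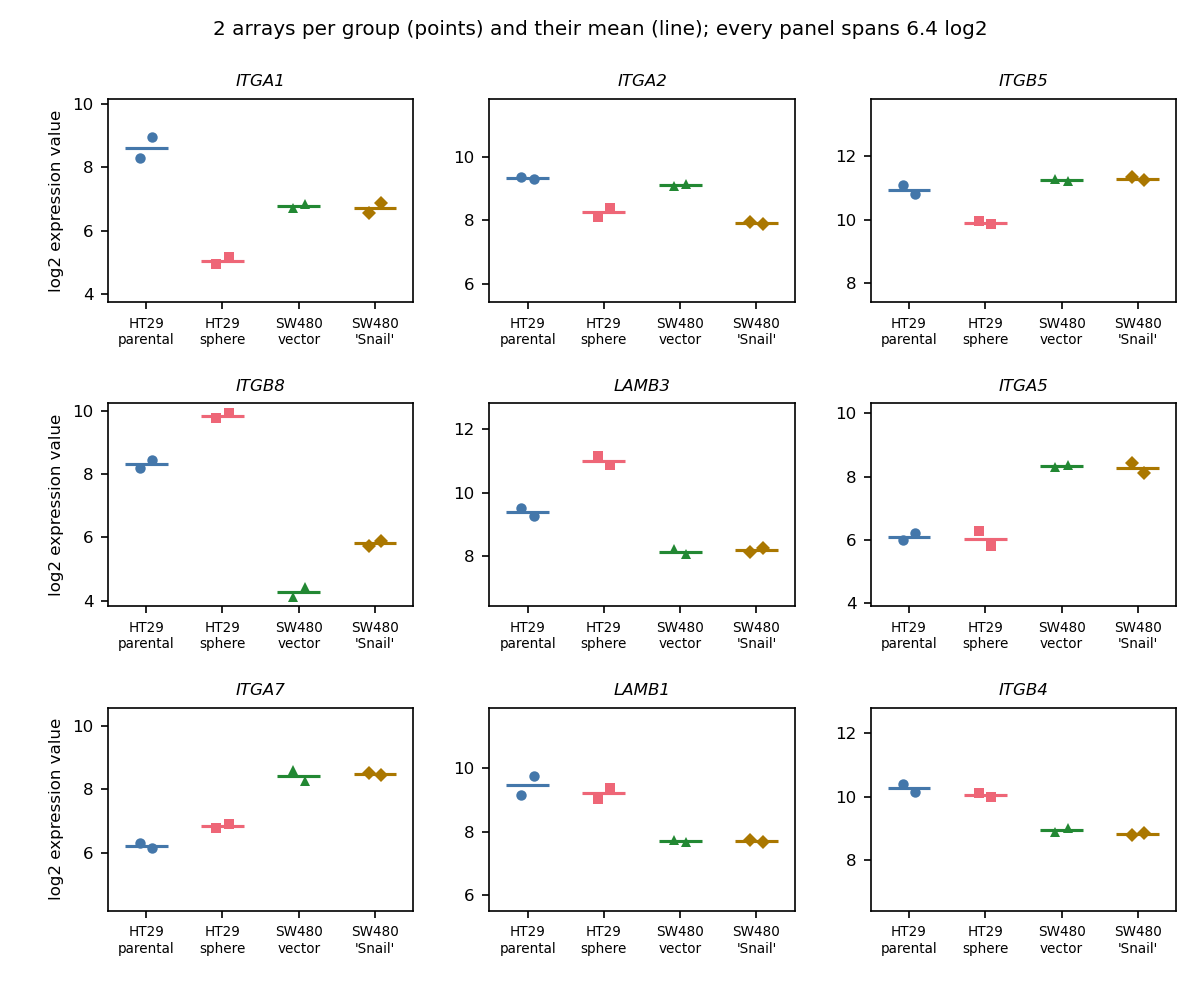
Log2 expression (y axis) of 9 members in the 4 groups (x axis); each point is 1 array, the horizontal line is the mean of the 2 arrays, and the y axes span the same range of log2 units from different starting values. LAMB3 is above its other groups in both sphere arrays (11.16 and 10.87), and ITGA5 is higher in all SW480 arrays than in all HT29 arrays.

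The laminin-binding alpha subunits moved less. ITGA6, the partner of ITGB4, fell from 10.55 ± 0.24 to 9.95 ± 0.09 (SD, n = 2) in spheres (-0.60 ± 0.16, SE; limma adjusted p 0.015). Its second probe set fell by 0.64 (adjusted p 0.0075, limma over probe sets naming 1 gene). The ITGA6 call was lost without parental array 1 or sphere array 2, with adjusted p up to 0.086. ITGA3, which binds the laminins of epithelia, was at 9.47 ± 0.10 in parental cells and 9.12 ± 0.08 in spheres (SD, n = 2; limma adjusted p 0.14).

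ITGA7, best known as the laminin receptor of muscle, rose in spheres and was far higher in the other line. It measured 6.30 and 6.14 in parental cells, 6.78 and 6.91 in spheres, 8.61 and 8.27 in vector cells, and 8.51 and 8.46 in the arrays labelled Snail. The sphere arrays lay above the parental ones, and all SW480 arrays lay above all HT29 arrays. The rise of ITGA7 in spheres was 0.63 ± 0.15 (SE; limma adjusted p 0.0079), and vector cells were 4.65-fold above parental HT29 cells (2.22 ± 0.15, SE; limma adjusted p 7.2e-07). The second ITGA7 probe set showed the line difference (2.59, adjusted p 2.8e-07) but a change of 0.10 in spheres (adjusted p 0.71). The ITGA7 call in spheres was also lost without sphere array 2, at an adjusted p of 0.057.

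Among the alpha subunits that read the RGD sequence of fibronectin and vitronectin, ITGA5, the fibronectin receptor subunit, passed between the lines and in neither the sphere comparison nor the one labelled Snail. It measured 5.99 and 6.21 in parental cells, 6.27 and 5.80 in spheres, 8.31 and 8.36 in vector cells, and 8.41 and 8.12 in the arrays labelled Snail. Every SW480 array stood above every HT29 array, and within each line the groups overlapped. Vector cells were 4.69-fold above parental HT29 cells (2.23 ± 0.18, SE; limma adjusted p 2.8e-06), while the ITGA5 change was -0.07 ± 0.18 in spheres (adjusted p 0.81) and -0.06 ± 0.18 in the arrays labelled Snail (adjusted p 0.86). ITGAV, the alpha partner of ITGB3, ITGB5, ITGB6 and ITGB8, differed by 0.26 ± 0.12 in spheres (adjusted p 0.13) and by 0.34 ± 0.12 in the arrays labelled Snail (adjusted p 0.087), and was lower in vector cells than in parental HT29 cells (-0.60 ± 0.12, SE; limma adjusted p 0.002). ITGA8 and ITGA2B, the platelet fibrinogen receptor subunit, passed the threshold in no comparison, with changes in spheres of 0.08 and 0.14.

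The beta subunits split. ITGB1, the shared partner, stayed between 12.53 and 12.70 on the 4 HT29 arrays, with a sphere change of -0.06 ± 0.13 (SE; limma adjusted p 0.75). ITGB5 measured 11.08 and 10.80 in parental cells, 9.95 and 9.86 in spheres, 11.28 and 11.21 in vector cells, and 11.34 and 11.23 in the arrays labelled Snail. Only the sphere arrays stood apart, below the other 6. The fall of ITGB5 in spheres was 2.05-fold (-1.04 ± 0.14, SE; limma adjusted p 0.00022), against 0.04 ± 0.14 (SE; limma adjusted p 0.88) in the arrays labelled Snail.

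For the 3 dimmer ITGB5 probe sets the sphere change minus the change labelled Snail was -0.55, -0.26 and 0.34. None passed (adjusted p 0.072, 0.43 and 0.56, limma over probe sets naming 1 gene). In spheres the 3 dimmer ones changed by -0.36, -1.49 and -0.54, of which the second passed (adjusted p 3.4e-05, limma over probe sets naming 1 gene). Labelled Snail, they changed by 0.19, -1.23 and -0.88, and the last 2 passed (adjusted p 0.00054 and 0.043). What ITGB5 did in the line labelled Snail therefore depends on the probe set, while all 4 gave a lower value in spheres.

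ITGB8 covered the widest range of the family. It measured 8.18 and 8.46 in parental cells, 9.77 and 9.92 in spheres, 4.13 and 4.44 in vector cells, and 5.74 and 5.90 in the arrays labelled Snail. The sphere pair and the pair labelled Snail each lay above their control pair, and both vector arrays were below the median of their own array. The rise of ITGB8 was 2.87-fold in spheres (1.52 ± 0.16, SE; limma adjusted p 4.8e-05) and measured 2.9-fold in the arrays labelled Snail (1.53 ± 0.16, SE; limma adjusted p 0.00023). Vector cells were lower than parental HT29 cells (-4.03 ± 0.16, SE; limma adjusted p 1.7e-08). Their values lay around the lower quartiles of the 2 vector arrays (4.37 and 4.38), and with no measure of detection the size of that difference, and of the rise in the arrays labelled Snail, is uncertain.

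Of 4 dimmer ITGB8 probe sets, 2 rose in spheres, by 1.33 and 1.78 (adjusted p 0.00026 and 2.7e-05, limma over probe sets naming 1 gene). The other 2 changed by 0.33 and 0.15 (adjusted p 0.16 and 0.55). The 4 changed by -0.04, 0.25, 0.08 and -0.08 in the arrays labelled Snail, none past the threshold. Between vector and parental cells they differed by -0.04, -0.35, -0.04 and -0.19, again none past it. The large line difference was therefore seen by the brightest probe set alone. The means of the 4 dimmer ones over the 8 arrays were 5.15, 4.57, 4.16 and 3.55, below the array medians. With all ITGB8 probe sets averaged, the rise remained in spheres (1.02, adjusted p 7.8e-05), while the value in the line labelled Snail was 0.35 (adjusted p 0.053). The averaged difference of vector from parental cells was -0.93 (limma adjusted p 5.9e-05).

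ITGB4, which anchors the hemidesmosome, measured 10.39 and 10.15 in parental cells, 10.10 and 9.98 in spheres, 8.89 and 9.00 in vector cells, and 8.80 and 8.86 in the arrays labelled Snail. All HT29 arrays lay above the SW480 arrays. The difference between the lines was 2.5-fold (-1.32 ± 0.13, SE; limma adjusted p 1.7e-05), and the ITGB4 change in spheres was -0.23 ± 0.13 (SE; limma adjusted p 0.24). ITGB3 and ITGB7 passed in no comparison.

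The subunits named for leukocytes were mostly near or below the array medians here. ITGAE, which lay well above them, pairs with ITGB7 on intraepithelial lymphocytes to bind E-cadherin. It fell in spheres from 9.65 ± 0.35 to 8.95 ± 0.02 (SD, n = 2; -0.70 ± 0.16, SE; limma adjusted p 0.0085), and was 0.46 ± 0.16 (SE; limma adjusted p 0.086) higher in the arrays labelled Snail. Without sphere array 1 the ITGAE fall had an adjusted p of 0.054. ITGB2, the beta subunit of leukocyte integrins, fell in the arrays labelled Snail from 5.89 ± 0.14 to 5.34 ± 0.15 (SD, n = 2; -0.54 ± 0.13, SE; limma adjusted p 0.02). The call on ITGB2 was lost without vector array 2 or Snail array 2, with adjusted p 0.15 and 0.16. ITGAL, ITGAM and ITGAD, and the alpha subunits ITGA4 and ITGA9, passed in no comparison; ITGAX was higher in vector cells than in parental HT29 cells (0.53 ± 0.13, SE; limma adjusted p 0.007).

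Of the laminin chains, 3 of 10 passed in spheres (30%, against 31.4% of all genes): LAMB3 and LAMA2 rose and LAMA5 fell. LAMB3, the beta chain of the laminin that hemidesmosomes bind, measured 9.52 and 9.29 in parental cells, 11.16 and 10.87 in spheres, 8.22 and 8.08 in vector cells, and 8.13 and 8.27 in the arrays labelled Snail. Both sphere arrays were above all others, and the SW480 groups overlapped. The rise of LAMB3 was 3.05-fold (1.61 ± 0.15, SE; limma adjusted p 2.7e-05), against 0.05 ± 0.15 (adjusted p 0.86) in the arrays labelled Snail. Vector cells were 2.39-fold below parental HT29 cells (-1.26 ± 0.15, SE; limma adjusted p 5.8e-05).

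LAMA5, the main alpha chain of the colon's basement membrane, fell in spheres from 9.88 ± 0.35 to 9.29 ± 0.06 (SD, n = 2; -0.58 ± 0.16, SE; limma adjusted p 0.019). Of the calls in spheres it was lost most often when 1 array was left out: without parental array 2, sphere array 1 or sphere array 2, with adjusted p up to 0.094, and its size ran from -0.83 to -0.34, the smallest without parental array 2. LAMA2, the alpha chain of muscle laminin, rose from 5.32 ± 0.22 to 6.12 ± 0.33 (SD, n = 2; 0.80 ± 0.18, SE; limma adjusted p 0.0055), and the call was lost without sphere array 1 (adjusted p 0.056). LAMC1, the gamma chain common to most laminins, changed by 0.33 ± 0.14 (SE; limma adjusted p 0.091). Its second probe set rose by 0.92 (adjusted p 0.00043, limma over probe sets naming 1 gene).

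LAMB1, a beta chain found in most basement membranes, passed between the lines only. It measured 9.17 and 9.75 in parental cells, 9.04 and 9.39 in spheres, 7.75 and 7.69 in vector cells, and 7.73 and 7.67 in the arrays labelled Snail. Groups of the same line overlapped, and every SW480 value was below every HT29 value. The line difference in LAMB1 was 3.34-fold (-1.74 ± 0.19, SE; limma adjusted p 3.1e-05), against -0.25 ± 0.19 (adjusted p 0.37) in spheres. LAMB2 and LAMC3 were higher in vector cells than in parental HT29 cells, by 0.81 ± 0.18 and 0.73 ± 0.16 (SE; limma adjusted p 0.0033 and 0.0036). LAMA1, LAMA4 and LAMB4 passed in no comparison.

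**Figure D3:**
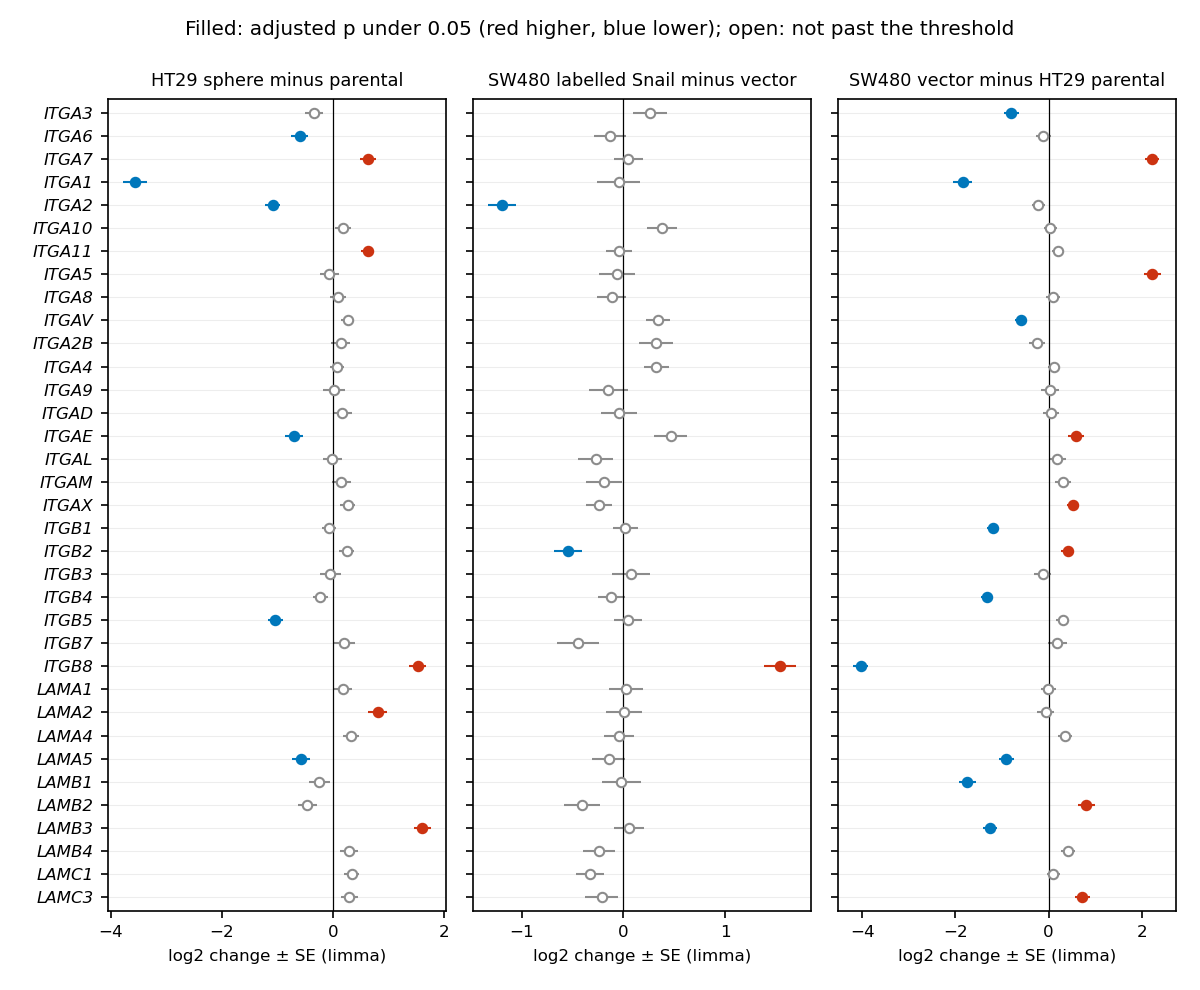
Log2 change (x axis, limma estimate ± SE) of the 35 measured members (rows) in spheres, in the arrays labelled Snail, and between vector and parental cells, with a scale of its own in each panel. Filled points passed an adjusted p of 0.05 (red higher, blue lower): 11, 3 and 16 of them.

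In the line labelled Snail, 3 of 35 members passed (8.57%), against 16.2% of all genes, of which 8.91% were higher, 7.34% lower and 3.32% past it by at least 2-fold: ITGB8 rose, and ITGA2 and ITGB2 fell, all given above. The median change was -0.04 over the members and 0.01 over all genes, and the median size was 0.15 against 0.20. Of the 10 laminin chains, 0 passed by limma, with 2 at an unadjusted p under 0.05. The number of genes called in this comparison dropped from 3213 to between 1447 and 1602 when any 1 of its 4 arrays was left out.

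The attached control cells of the lines differed in more members than either other comparison called. Between SW480 vector and HT29 parental cells 16 of 35 members passed (45.7%, against 46.1% of all genes), 7 higher and 9 lower in vector cells. Of all genes 22.6% were higher, 23.5% lower and 18.9% past it by at least 2-fold. Lower in vector cells were ITGA1, ITGA3, ITGAV, ITGB1, ITGB4, ITGB8, LAMA5, LAMB1 and LAMB3, and higher were ITGA5, ITGA7, ITGAE, ITGAX, ITGB2, LAMB2 and LAMC3. ITGB1 was 2.3-fold lower (-1.20 ± 0.13, SE; limma adjusted p 2.2e-05), ITGA3 lower by 0.80 ± 0.16 (SE; limma adjusted p 0.0021) and LAMA5 by 0.91 (limma adjusted p 0.00092). ITGB2 was higher by 0.41 (limma adjusted p 0.029), a call lost without parental array 1, parental array 2 or vector array 2. The call on ITGAE (0.59, adjusted p 0.013) was lost without parental array 2 or vector array 1, and that on ITGAX without vector array 1, with adjusted p of 0.077 at most. This comparison shares its arrays with both others, and one of its groups carries a vector and the other none, so it is given as a description of levels.

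The sphere and Snail comparisons share no arrays, and their difference was tested directly. It passed for 8 of 35 members (22.9%, against 27.5% of all genes, 10.6% upward, 16.9% downward and 14.3% by at least 2-fold). The sphere change lay below the change labelled Snail for ITGA1, ITGAE and ITGB5, and above it for ITGA11, ITGB2, LAMA2, LAMB3 and LAMC1. The size was -3.52 ± 0.30 for ITGA1 (SE; limma adjusted p 3.2e-05), 1.56 ± 0.21 for LAMB3 (adjusted p 0.00045) and -1.08 ± 0.19 for ITGB5 (adjusted p 0.0021). For ITGB8 it was -0.01 ± 0.22 (adjusted p 0.98). With a gene's probe sets averaged, the difference was -0.39 for ITGB5 (limma adjusted p 0.16) and 0.68 for ITGB8 (adjusted p 0.0083). Leaving out vector array 2 or either Snail array brought the count of 8 to 5.

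**Figure D4:**
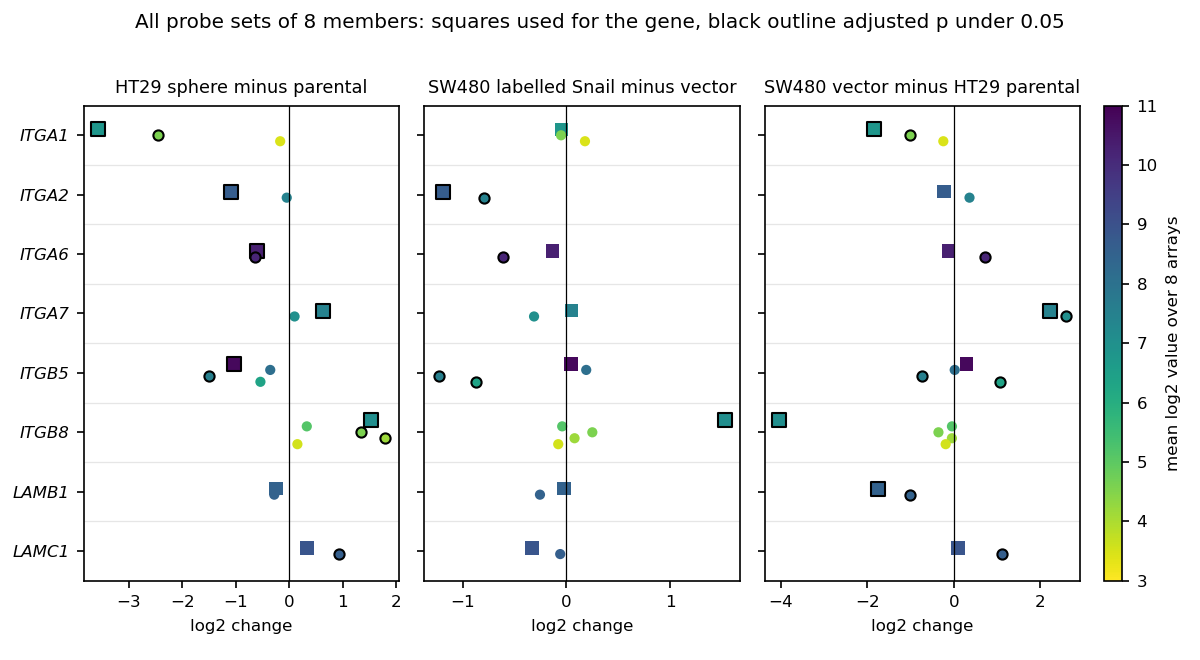
Log2 change (x axis) of every probe set of 8 members (rows) in spheres, in the arrays labelled Snail, and between vector and parental cells; squares are the probe sets used for the gene, circles the dimmer ones, a black outline marks an adjusted p under 0.05, and colour gives the mean log2 value. The 4 ITGB5 marks all lie below 0 in spheres and on both sides of 0 in the arrays labelled Snail.

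Probe sets of one gene often disagreed, which bears on every gene value above. Of the 35 members, 25 had several probe sets and 10 had 1, with 95 in all. In spheres 8 of these 25 were called by the probe set used, and for 5 of the 8 (ITGA1, ITGA6, ITGB5, ITGB8 and LAMA2) another probe set was called in the same direction. A dimmer probe set alone was called for ITGAM, LAMA1, LAMC1 and LAMC3. Labelled Snail, this held for ITGA6 and ITGB5, and of the 3 members called there only ITGA2 was called by another probe set as well. Between the lines 9 of the 25 were called by the probe set used, 7 of them also by another in the same direction. Dimmer probe sets alone were called there for ITGA6, ITGB5, LAMA4 and LAMC1. Those of ITGB5 were called in opposite directions (-0.73 and 1.07, adjusted p 0.0023 and 0.0053, limma over probe sets naming 1 gene).

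Genes that work with integrins and laminins were counted by list, beside the 31.4% of all genes called in spheres (12.4% higher, 19% lower) and the 16.2% called in the line labelled Snail (8.91% higher, 7.34% lower). The lists were chosen with earlier results of these data known. A share above that of all genes is therefore a description and not a test. Shares were not matched for signal level. In spheres 40% of members with a mean above every array median were called, against 10% of dimmer members. The adhesion complex couples integrin tails to actin, and of its 35 measured genes (40 listed) 2 rose, 13 fell and 20 did not pass in spheres (42.9% called), with a median of -0.12 against 0.04 over all genes. FERMT1, the epithelial kindlin that activates integrins, fell by 1.38 ± 0.13 (SE; limma adjusted p 2.4e-05), LIMS2, which joins integrin-linked kinase, by 0.97 (adjusted p 5e-04) and TNS2, a tensin, by 0.77 (adjusted p 0.0012). Without sphere array 1 the count of 15 dropped to 9. In the arrays labelled Snail 2 rose, 6 fell and 27 did not pass (22.9% called, median -0.04): NEDD9, a docking protein, rose by 1.62 ± 0.20 (adjusted p 0.00067), while TLN2, a talin, fell by 1.18 (adjusted p 0.00079) and PARVB, a parvin, by 0.59 (adjusted p 0.026). That count of 8 was 2 to 5 with any 1 of the 4 arrays left out.

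Of 14 measured partners that sit beside integrins in the membrane, 9 rose, 1 fell and 4 did not pass in spheres (71.4% called, against 31.4% of all genes), with a median of 0.58. PLAUR, the urokinase receptor, measured 8.89 and 8.55 in parental cells and 11.94 and 11.87 in spheres, a 9.08-fold rise (3.18 ± 0.16, SE; limma adjusted p 7.7e-07). CD47, an integrin-associated protein, rose by 0.93 (adjusted p 3e-04) and SDC1, a syndecan, by 0.86 (adjusted p 0.00043). Without sphere array 2 the count of 10 was 6. Labelled Snail, 1 rose, 4 fell and 9 did not pass (35.7% called, against 16.2% of all genes, median -0.15): PLAUR fell by 1.33 ± 0.16 (adjusted p 6e-04), TSPAN8, a tetraspanin, by 0.96 (adjusted p 0.0027) and CAV1, the caveolin, by 0.88 (adjusted p 0.0034). That count of 5 was 3 with any 1 array left out.

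Of 22 measured basement membrane genes (23 listed), 1 rose, 5 fell and 16 did not pass in spheres, with a median of 0.07. The 27.3% called lies below the 31.4% of all genes, so the count is no result about the list. FREM2 and FRAS1, which form a complex in the epithelial basement membrane, fell by 3.18 ± 0.19 and 2.45 ± 0.16 (SE; limma adjusted p 1.9e-06 and 2.9e-06), and HSPG2, the proteoglycan perlecan, by 1.10 (adjusted p 8e-04). The line labelled Snail had 3 falls of 22 (13.6% called, against 16.2% of all genes), namely FBLN1 (-0.94, adjusted p 0.0022), COL7A1, the anchoring fibril collagen (-1.08, adjusted p 0.0023), and COL4A2, a network collagen chain (-0.57, adjusted p 0.011). Among 7 measured genes of other laminin receptors and the hemidesmosome (9 listed), 3 rose, 1 fell and 3 did not pass in spheres (57.1% called, against 31.4% of all genes, median 0.25). The rises were LGALS3, a galectin (1.23 ± 0.12, adjusted p 3.6e-05), DST and PLEC, the plakins that tie hemidesmosomes to keratin (0.83 and 0.53, adjusted p 0.0034 and 0.0084). In the arrays labelled Snail only SGCB, a sarcoglycan, passed of the 7 (14.3%, against 16.2% of all genes; -0.45, adjusted p 0.042), and it passed in none of the fits with 1 array left out.

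Integrin ligands other than laminins gave 9 rises and 2 falls among 30 measured genes (31 listed) in spheres, with 19 not past and a median of 0.18. The 36.7% called compares with 31.4% of all genes. SPP1, osteopontin, measured 5.74 and 5.32 in parental cells and 8.85 and 8.62 in spheres, a 9.23-fold rise (3.21 ± 0.20, SE; limma adjusted p 2e-06). CCN1, a matricellular ligand, rose by 1.72 (adjusted p 8.2e-06), and TGFBI, a secreted adhesion protein, fell by 1.78 (adjusted p 1.3e-05). In the arrays labelled Snail 2 rose, 6 fell and 22 did not pass (26.7% called, against 16.2% of all genes, median -0.13). TNC, tenascin C, fell from 8.03 to 5.13 as group means (-2.89 ± 0.26, SE; limma adjusted p 1e-04), TGFB1, whose latent form ITGB8 binds with ITGAV, fell by 1.37 (adjusted p 0.00091) and ICAM2 by 1.01 (adjusted p 0.00094). That count of 8 was 3 to 6 with 1 array left out.

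**Figure D5:**
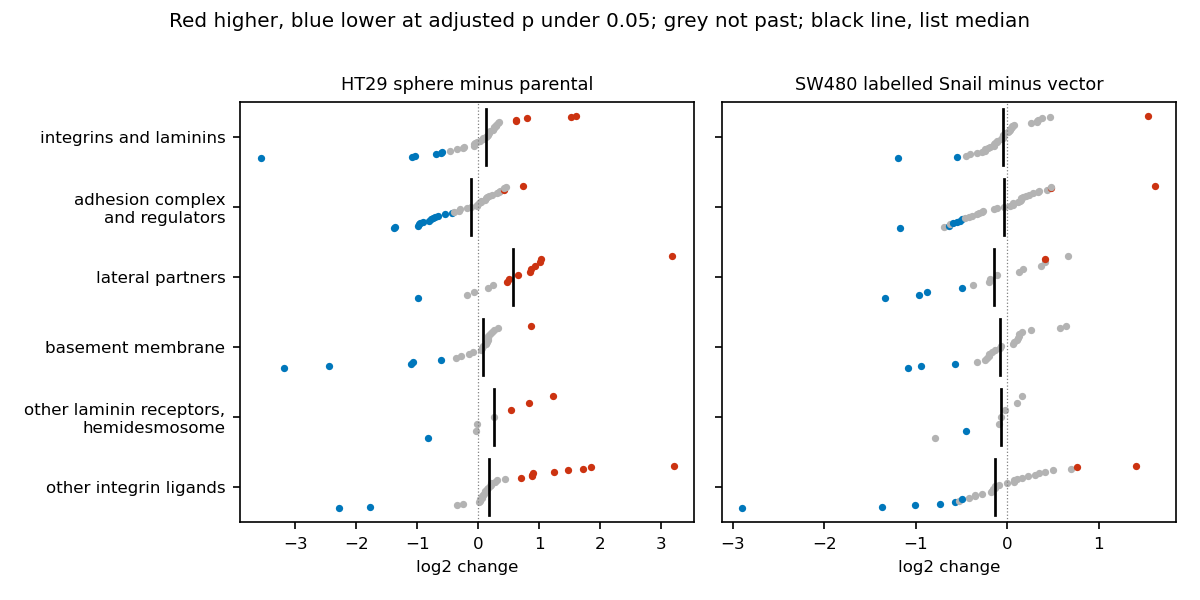
Log2 change (x axis) of each measured gene of 6 lists (rows) in spheres and in the arrays labelled Snail; red points were higher and blue points lower at an adjusted p under 0.05, grey points did not pass, and the black line is the list median. Lateral partners lie mostly to the right in spheres (9 red of 14), and adhesion complex genes hold 13 blue points of 35.

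Markers of cell types were read beside these results. The mean of 10 colon epithelial markers was 10.20 to 10.34 on parental arrays, 10.90 on both sphere arrays, 8.83 to 8.95 on vector arrays and 8.99 to 9.00 on the arrays labelled Snail. In spheres 4 of the 10 rose (CDH17, KRT20, KRT19 and CDX1), VIL1 fell (-0.77, limma adjusted p 0.0053) and 5 did not pass. That is 50% called, against 31.4% of all genes. The median change was 0.04, so the higher mean does not describe the list as a whole. CDH17, an intestinal cadherin, rose most, from 5.08 and 5.09 to 9.92 and 9.73 (4.74, limma adjusted p 4.9e-08), and KRT20, a keratin of mature colon cells, rose by 1.59 (adjusted p 0.00019). In SW480 cells KRT20 and CDH17 were below the array medians.

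The 8 fibroblast markers averaged 5.80 to 5.81 on parental arrays and 6.32 to 6.47 on sphere arrays, and 5.62 to 5.64 and 5.82 to 5.91 on the vector arrays and those labelled Snail. LUM alone of the 8 passed in spheres (3.78, limma adjusted p 2.3e-07), while COL3A1 stayed at 4.41 to 4.63 in HT29 cells. The 6 leukocyte markers averaged 6.68 to 6.83 on HT29 arrays and 5.19 to 5.32 on SW480 arrays, with 1 of 6 higher in spheres. LYZ, which intestinal cells also make, was at 12.85 to 12.99 in HT29 cells, whereas PTPRC, the pan-leukocyte CD45, lay at 4.60 to 5.13 on all 8 arrays, below the array medians, beside the ITGAE, ITGB2 and ITGAX values. Platelet markers averaged 5.17 to 5.56 and endothelial markers 4.92 to 5.31 over the 8 arrays, with 2 of 5 and 1 of 5 higher in spheres. Called in spheres were 12.5% of fibroblast, 16.7% of leukocyte, 40% of platelet and 20% of endothelial markers. Of all genes 31.4% were called there, 12.4% as higher. Each of these marker calls was upward. The fibroblast share lies near 12.4%, and the leukocyte, platelet and endothelial shares above it rest on 1, 2 and 1 genes. With so few genes, none of these counts is a result about its list. How far these markers bear on the integrin and laminin changes was not tested.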

How the data were processed

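The authors deposited log2 expression values of 54675 probe sets on 8 arrays, which came from RMA, per the submitters' processing notes. Its version is not given in the sources used here. RMA summarises probes on a common distribution and gives no detection call. GEO's platform annotation named 1 gene for 41091 probe sets, several for 1801 and none for 11721; 62 were controls. RefSeq (GRCh38.p14) changed 0 symbols. The members and lists were chosen with earlier results of these data known.

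Limma 3.58.1 (R 4.3.3) fitted 1 mean per group to the 8 arrays over 19775 genes, with 4 residual and 6.10 prior degrees of freedom. Tests were two-sided, adjusted by Benjamini-Hochberg over all genes, at a threshold of 0.05. Dimmer probe sets were tested over the 41091 probe sets naming 1 gene. Those that ITGB6 shares were tested over the 54613 probe sets other than controls. An exact permutation test of 2 against 2 cannot go below 0.333 and was not used. The precision is limited by 2 arrays a group.

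Named were members past the threshold with a change of at least 1 in spheres or in the line labelled Snail, the 6 largest line differences, every other member briefly, and up to 3 genes per list with the lowest adjusted p in each of these 2 comparisons. ITGAE, ITGB2 and other members with smaller changes are given with fewer values. CDH17, KRT20, LUM, COL3A1, LYZ and PTPRC were singled out after their values were seen. The scripts were tested on simulated data.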

Additional observations from a re-analysis of the deposited data

Results flagged for a closer look

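Of the 35 measured members, 8 changed differently in spheres and in the arrays labelled Snail by limma's test of the difference. The differences, sphere change minus change labelled Snail on the log2 scale, were -3.52 for ITGA1, -1.16 for ITGAE and -1.08 for ITGB5, and 0.67 for ITGA11, 0.79 for ITGB2, 0.80 for LAMA2, 1.56 for LAMB3 and 0.66 for LAMC1, with limma adjusted p from 3.2e-05 to 0.036. For LAMC1 neither change passed alone (0.33 and -0.33). With a gene's probe sets averaged, the calls on ITGA11 and ITGB5 were lost (0.27 and -0.39, limma adjusted p 0.2 and 0.16). ITGAM, ITGB8, LAMA1 and LAMC3 passed in that setting. The call was lost in some fits with 1 array left out for ITGA11, ITGB2, LAMA2 and LAMC1, and in none for ITGA1, ITGAE, ITGB5 and LAMB3.

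Among the named genes of the surrounding pathways, the widest differences were 4.51 for PLAUR, 3.80 for TNC, 2.91 for SPP1, 2.85 for TGFB1 and 2.22 for CCN1 upward. Downward they were -2.97 for FREM2, -2.55 for FRAS1 and -2.52 for NEDD9. PLAUR, TGFB1, CAV1, CCN1, TNC and NEDD9 passed in both comparisons in opposite directions.

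In the adhesion complex the other differences were -1.08 for FERMT1, -1.14 for LIMS2, 1.31 for TLN2 and 0.70 for PARVB. Among lateral partners they were 1.13 for CD47 and 1.53 for CAV1. Basement membrane genes gave -0.91 for HSPG2, 1.16 for FBLN1 and 1.00 for COL7A1. Other laminin receptors and the hemidesmosome gave 1.12 for LGALS3, 0.90 for DST, 0.56 for PLEC and 0.70 for SGCB. The remaining ligands gave -1.20 for TGFBI and 1.21 for ICAM2. Limma adjusted p over these named pathway genes ran from 1.8e-06 to 0.04.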

How the results depend on the processing

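With 2 arrays a group, leaving out 1 array gave 8 to 12 members called in spheres, 2 to 3 in the line labelled Snail, 14 to 16 between lines and 5 to 10 for the difference. Over all genes it gave 4251 to 5885, 1447 to 1602, 7296 to 8860 and 3931 to 5785. ITGA1, ITGA2, ITGA11, ITGB5, ITGB8 and LAMB3 in spheres, and ITGA2 and ITGB8 in the line labelled Snail, passed in all of these fits. The members called there were 5 in place of 3 with array weights, 5 with each line fitted alone and 5 with an intensity trend, each including the 3. Each line fitted alone gives no value between lines or for the difference, and the filter on dim genes none for the members it removed. Quantile normalization and a common median kept all 11 sphere calls and all 3 labelled Snail. Both lost the call on ITGB2 between lines.

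The choice of probe set changed most. Averaging a gene's probe sets lost ITGA7 and ITGA11 in spheres. It gained ITGAM, LAMA1 and LAMC1 there (0.48, 0.58 and 0.63, limma adjusted p 0.011, 0.0069 and 0.0027). In the line labelled Snail it lost ITGB2 and ITGB8, and ITGB5 passed at -0.47 (adjusted p 0.039). Between lines it lost ITGAX and gained LAMC1. For the difference it lost ITGA11 and ITGB5 and gained ITGAM, LAMA1 and LAMC3, and the value for ITGB8 became 0.68 (adjusted p 0.0083). Dimmer probe sets turned the sign for ITGA11 in spheres (-0.058), for ITGB5 (-1.23 and -0.88) and ITGB8 (-0.040 and -0.078) labelled Snail, between lines for ITGA6 (0.73), ITGB1 (0.080 and 0.10), ITGB4 (0.33 and 0.33) and ITGB5 (-0.73), and in the difference for ITGB5 (0.34) and ITGB8 (1.08 and 1.71). The cause was not tested.

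The replicate numbers did not pair the arrays (same-number correlations 0.03 in HT29 and -0.03 in SW480). With the replicate block the members called were 11, 3, 16 and 9, the ninth being ITGA3, and SGCB labelled Snail no longer passed.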

Other observations

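ITGB6, the epithelial beta subunit that pairs with ITGAV and activates TGF-beta, is read by 4 probe sets that the annotation gives to both LINC02478 and ITGB6, so their values belong to either gene. The brightest measured 8.57 and 9.08 in parental HT29 cells, 7.64 and 7.50 in spheres, 4.24 and 3.95 in vector cells, and 5.54 and 5.43 in the arrays labelled Snail. Both sphere arrays lay below both parental arrays, and both arrays labelled Snail above both vector arrays. The change was -1.26 ± 0.18 in spheres (SE; limma adjusted p 0.00046 over 54613 probe sets) and 1.39 ± 0.18 in the arrays labelled Snail (adjusted p 0.00085). Vector cells were lower than parental cells (adjusted p 8.6e-09), at values below the lower quartiles of their arrays, so the sizes of that difference and of the change labelled Snail are uncertain. The 3 dimmer probe sets changed by -1.21, -1.07 and 0.23 in spheres, and by 0.49, 0.09 and -0.19 in the arrays labelled Snail, where none passed.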
